A study of Mus musculus with 6 samples.

Results

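Annexins and galectins are lipid-binding and sugar-binding proteins of the macrophage cytosol, surface and secretions, and 10 of their genes are described here out of 54532 genes listed per library. The members were taken by symbol: the annexin genes Anxa1, Anxa2, Anxa3, Anxa4, Anxa5 and Anxa7, and the galectin genes Lgals1, Lgals3, Lgals8 and Lgals9. Each symbol had 1 row in the tables. RNA was sequenced from macrophages differentiated in vitro from the bone marrow of C57BL/6 mice. In the siCXCR4 group the cells carried an siRNA, a short RNA that directs the degradation of a matching transcript, against Cxcr4, the receptor for the chemokine CXCL12, and in the siNC group a negative-control siRNA. Lipopolysaccharide (LPS), the bacterial membrane glycolipid sensed through TLR4, was given to both groups at 100 ng/ml for 12 hours, so there is no group without LPS. The labels give 3 samples per group, but the table of siNC replicate 3 held, in 19072 of 19072 genes with reads, the counts of siNC replicate 2. With the same counts in every gene, these tables count as 1 sample here, which leaves 3 siCXCR4 and 2 siNC libraries. The labels do not say whether replicates are separate animals or cultures, so p-values reflect only how far these samples spread, and that spread may be technical.

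Annexins bind phospholipid membranes in the presence of calcium, and through this they take part in membrane repair, vesicle traffic and the handling of phosphatidylserine, the lipid that dying cells expose. Galectins are lectins that recognise beta-galactoside sugars on glycoproteins. They act outside the cell on receptors of other leukocytes, and inside it they gather on the exposed sugars of damaged endosomes and lysosomes. In macrophages, galectin-3 is long known as the surface antigen Mac-2, and annexin A1 is known as a mediator that limits inflammation through formyl peptide receptors.

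The libraries held 18890751 to 21780840 reads in genes. Expression is given as FPKM, a level divided by gene length and library size, so that genes of different length can be compared. Macrophage markers were present: 8 of 8 averaged at least 1 FPKM, and their summed level was 4149 to 4513 FPKM in siCXCR4 and 4287 to 4525 FPKM in siNC libraries. Of 8 neutrophil markers 5 averaged at least 1 FPKM, led by S100a9, with sums of 84.2 to 99.6 FPKM in siCXCR4 and 105 to 109 FPKM in siNC libraries, while Ly6g, Mpo and Elane averaged 0.0323 to 0.0396 FPKM. No marker of the T cell, B cell, dendritic cell, fibroblast, mast cell or erythroid lists averaged 1 FPKM. The siRNA target Cxcr4 was at 31.1, 36.2 and 32.7 FPKM in siCXCR4 and at 41.3 and 42.1 FPKM in siNC libraries (log2 fold change -0.32, SE 0.0704, limma adjusted p = 0.457). With siCXCR4 replicate 2 left out, edgeR called Cxcr4 at -0.40 (adjusted p = 0.00104) and limma did not at -0.38 (adjusted p = 0.106). With all libraries edgeR did not call Cxcr4, at -0.34 (adjusted p = 0.0637). Nor did edgeR call it without siCXCR4 replicate 1 or 3, at -0.29 and -0.33 (adjusted p = 0.439 and 0.307). By whole reads, siCXCR4 replicate 2 lay nearer to the siNC libraries (chi-square per gene 4.51 and 5.88) than to the other siCXCR4 libraries (6.88 and 8.58), so the members' fold changes are also given without it. It was picked by the values themselves, and leaving out the siCXCR4 library nearest to siNC tends to widen group differences. Over all genes, edgeR called 17 with all libraries and 312 without siCXCR4 replicate 2.

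The sequences just upstream of the start sites of Lgals9, Anxa2 and Lgals3 are printed to show the start regions of the galectin with the lowest p, of a membrane-repair annexin and of the most abundant member. They were chosen after the values were seen. RefSeq's promoter table (build GRCm38.p6) held 8 of the 10 members in 10 windows, and Anxa3 and Lgals1 had no entry. The start sites are RefSeq's; that of Lgals3 lies within the longer gene of the deposited annotation, so its stretch is intronic there. Only bases outside annotated exons are printed, each 5′ to 3′ on the gene's strand, with motif matches in capitals. The Lgals9 stretch is at chr11:78984947-78985174 on the minus strand, that of Anxa2 at chr9:69453433-69453619 on the plus strand and that of Lgals3 at chr14:47373610-47373812 on the plus strand.
Lgals9: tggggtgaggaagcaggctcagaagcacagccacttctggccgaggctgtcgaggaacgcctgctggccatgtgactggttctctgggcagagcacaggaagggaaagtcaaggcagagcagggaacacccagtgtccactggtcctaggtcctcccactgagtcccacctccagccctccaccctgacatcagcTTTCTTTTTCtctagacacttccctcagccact
Anxa2: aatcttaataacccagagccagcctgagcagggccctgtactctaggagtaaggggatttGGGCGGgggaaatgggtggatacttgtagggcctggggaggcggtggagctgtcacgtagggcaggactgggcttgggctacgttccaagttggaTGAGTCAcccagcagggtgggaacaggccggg
Lgals3: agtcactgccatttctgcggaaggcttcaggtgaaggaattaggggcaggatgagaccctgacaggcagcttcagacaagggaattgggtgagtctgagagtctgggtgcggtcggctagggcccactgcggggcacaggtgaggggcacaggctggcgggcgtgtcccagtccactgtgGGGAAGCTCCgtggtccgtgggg

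Searched on both strands were the core of the interferon-stimulated response element (GAAA, any 2 bases, GAAA), the gamma-activated element (TTCNNNGAA), the NF-kB motif, the AP-1 motif (TGANTCA), the GC box (GGGCGG) and the TATA box (TATAAA). In capitals stand a match to the interferon-stimulated response element core in Lgals9, to the GC box and AP-1 motif in Anxa2 and to the NF-kB motif in Lgals3, with no overlap between matches. Over the 250 bases before the start site, exons included, a match to the interferon-stimulated response element core was in 2.98% of all 32851 windows and in 1 of the 10 member windows, that of Lgals9. An NF-kB match was in 7.25% of all windows and in those of Anxa4, Lgals3 and Lgals8. An AP-1 match was in 6.75% of all windows and, among members, in that of Anxa2, a GC box in 32.7% and 4 member windows, and a TATA box in 12.4% and 2 member windows. No member window matched the gamma-activated element, which 7.02% of all windows held. A match is a description of the letters, not a binding site.

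The first question was how much of each family member these LPS-treated macrophages carried. Every member was expressed, and the order of levels was largely fixed across libraries. Lgals3 was the most abundant at a mean of 641 FPKM over the 5 libraries, followed by Anxa5 at 407, Lgals9 at 334, Anxa1 at 187, Lgals1 at 148, Anxa4 at 126, Anxa2 at 79.3, Lgals8 at 75.6, Anxa7 at 25.5 and Anxa3 at 22.8 FPKM. Among the 9943 genes that averaged 1 FPKM or more, levels ranked from the 80.1 percentile (Anxa3) to the 99.6 percentile (Lgals3). Neighbours in this order whose library ranges overlapped were Anxa1 and Lgals1, Lgals1 and Anxa4, Anxa2 and Lgals8, and Anxa7 and Anxa3. Anxa2 exceeded Lgals8 in only 3 of 5 libraries and Lgals1 exceeded Anxa4 in 4 of 5, while the remaining neighbours kept their order in 5 of 5.

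**Figure D1:**
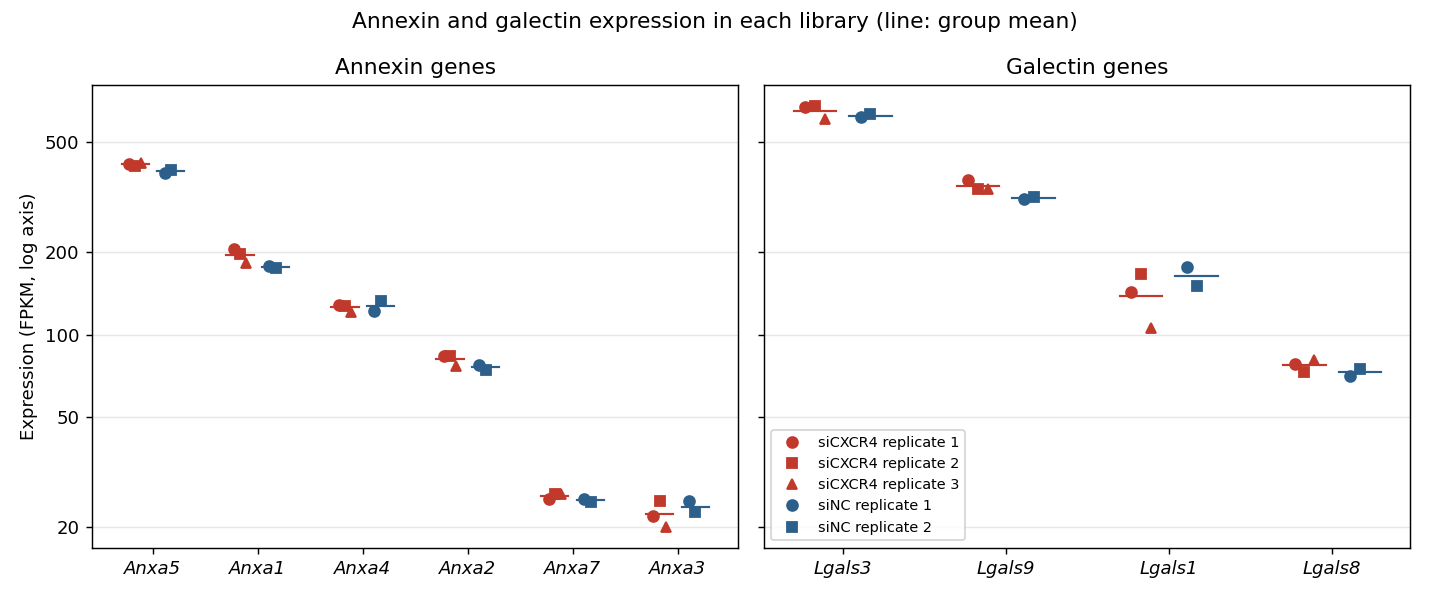
Expression (FPKM, log axis) of the 6 annexin and 4 galectin genes in each siCXCR4 library (red, left) and each siNC library (blue, right), with a line at each group mean. Differences between genes, from 22.8 FPKM on average for Anxa3 to 641 FPKM for Lgals3, are far larger than differences between groups, and Lgals1 has the widest scatter.

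Within the families, Anxa5 made up 47.4%, 47.2% and 49.7% of the summed FPKM of the 6 annexins in siCXCR4 libraries, against 47.6% and 48.0% in siNC libraries. Lgals3 made up 53.3%, 54.0% and 53.7% of the summed FPKM of the 4 galectins in siCXCR4 libraries, against 52.6% and 53.8% in siNC libraries. These shares do not depend on a single scaling factor per library, and in both cases the groups overlapped. The share of Lgals1 was 11.4%, 13.2% and 9.34% in siCXCR4 and 15.0% and 12.8% in siNC libraries, again with overlapping groups. The summed annexin level was 865 ± 17.0 FPKM in siCXCR4 (SD, n = 3) and 820 ± 8.27 FPKM in siNC (SD, n = 2), and the summed galectin level was 1215 ± 69.6 and 1174 ± 0.491 FPKM.

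The second question was whether any member differed between siCXCR4 and siNC macrophages. None passed the test: of 10 members, all of which passed the filter on low values, 0 had an adjusted p under 0.05 by limma fitted over all genes. Limma called 0 of 9943 genes (0%). Lgals9 was the 1 member whose unadjusted p fell below 0.05, on the higher side, where 9.34% of all tested genes had such a p, 5.8% of tested genes on the higher side. On whole reads worked back from the FPKM, 0 members were called by edgeR, DESeq2 or limma-voom, which called 0.133%, 0.333% and 0.0938% of genes with an adjusted p. Log2 fold changes (log2(FPKM + 1) in siCXCR4 minus that in siNC) were above 0 for 7 of 10 members, though that of Lgals3 turned to -0.03 under quantile normalization. Over all tested genes, 56.4% were above 0. The median was 0.07 over the members and 0.01 over all tested genes. In 3 members the groups did not overlap, all higher in siCXCR4, where the groups did not overlap in 27.8% of all tested genes and did so with siCXCR4 higher in 17.9%. Without siCXCR4 replicate 2 there were 6 such members, with Lgals8 higher and Anxa3 and Lgals1 lower beside the first 3, where 47.1% of all tested genes had groups that did not overlap. With siCXCR4 replicate 1 or 3 left out there were 4 and 5 (37.3% and 39.3% of all tested genes), and with siNC replicate 1 or 2 left out 6 and 5 (53.3% and 55%). In such bulk samples, fewer cells of a type and less RNA per cell cannot be told apart.

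**Figure D2:**
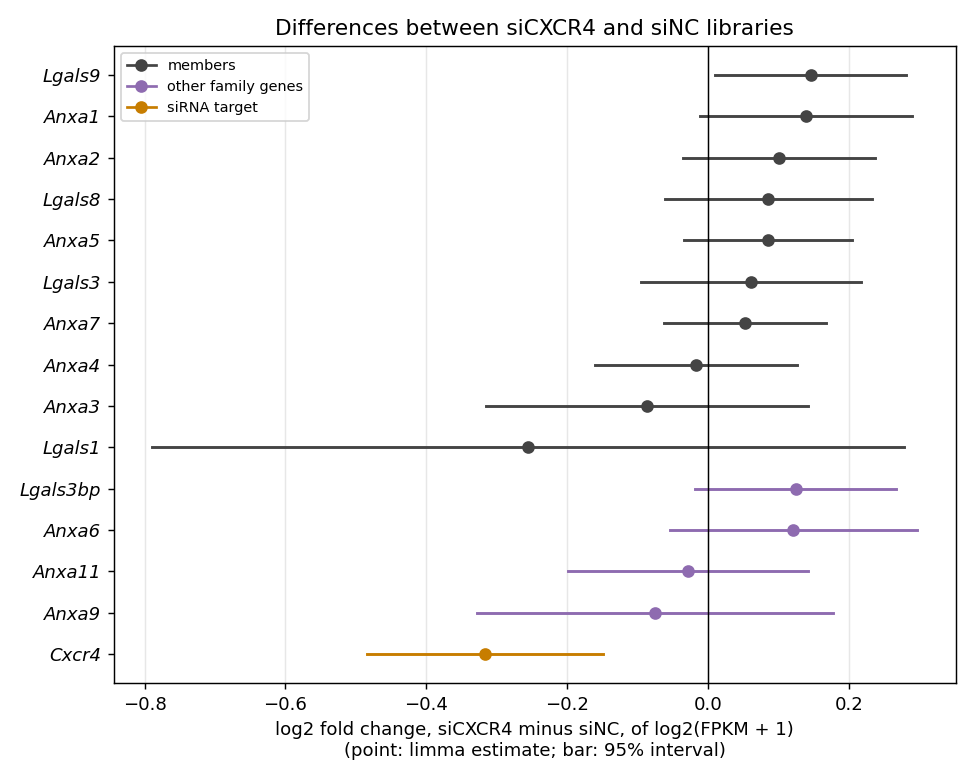
Log2 fold change, siCXCR4 minus siNC, with 95% interval (limma) for the 10 members (grey), 4 other family genes averaging 1 FPKM or more (purple) and Cxcr4 (orange). Member estimates run from -0.26 for Lgals1 to 0.15 for Lgals9, and the interval of Lgals1 is the widest.

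Lgals9, a galectin with paired sugar-binding domains and a ligand of the T-cell receptor protein TIM-3 (gene ENSMUSG00000001123, GRCm38 chromosome 11, 78962974 to 78984946, minus strand), carried the interferon-element match printed above. It was at 365, 338 and 339 FPKM in siCXCR4 libraries, against 311 and 316 FPKM in siNC libraries. All 3 siCXCR4 values lay above both siNC values, with replicate 1 the highest. The group means were 347 ± 15.1 FPKM in siCXCR4 (SD, n = 3) and 314 ± 4.01 FPKM in siNC (SD, n = 2). The log2 fold change was 0.15 (SE 0.0570, 95% interval 0.01 to 0.28), and its adjusted p was 0.525 by limma and 0.499 by edgeR. An exact two-sided permutation test gave p = 0.1, the smallest that 3 libraries against 2 allow. Without siCXCR4 replicate 2 the log2 fold change was 0.16 (limma adjusted p = 0.308). Havcr2, which encodes TIM-3, averaged 0.710 FPKM in siCXCR4 and 0.876 FPKM in siNC libraries, below the level at which genes were tested.

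Lgals3, the chimera-type galectin that forms oligomers through its amino-terminal tail (ENSMUSG00000050335, chromosome 14, 47367751 to 47386160, plus strand), was at 670, 678 and 609 FPKM in siCXCR4 libraries, against 617 and 632 FPKM in siNC libraries. The siNC values lay between those of siCXCR4 replicate 3 and the other siCXCR4 libraries, so the groups overlapped (log2 fold change 0.06, SE 0.0652, 95% interval -0.09 to 0.22, limma adjusted p = 0.785). The Lgals3 estimate was 0.032 without siCXCR4 replicate 2 and 0.11 without siCXCR4 replicate 3 (limma adjusted p = 0.868 and 0.730). Lgals8, a galectin with paired domains that in human cells recruits the autophagy receptor NDP52 to damaged vesicles (ENSMUSG00000057554, chromosome 13, 12439415 to 12464944, minus strand), was at 78.0, 73.1 and 81.0 FPKM in siCXCR4 libraries, against 70.6 and 75.1 FPKM in siNC libraries. Its groups overlapped through siCXCR4 replicate 2 (log2 fold change 0.09, limma adjusted p = 0.684). The Lgals8 estimate was 0.12 without siCXCR4 replicate 2 (limma adjusted p = 0.390), 0.052 without siCXCR4 replicate 3, 0.042 without siNC replicate 1 and 0.13 without siNC replicate 2. Lgals8 overlaps Heatr1 on the other strand, which averaged 1472 reads against 5685 for Lgals8, and with no strand setting known, reads of the shared stretch cannot be told apart. Calcoco2, the mouse gene named for NDP52, had 0 reads in all 5 libraries.

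Lgals1, the small dimeric galectin that acts on T cells (ENSMUSG00000068220, chromosome 15, 78926725 to 78930465, plus strand), varied most among the members. It was at 143, 166 and 106 FPKM in siCXCR4 libraries, against 176 and 151 FPKM in siNC libraries. The lowest value was that of siCXCR4 replicate 3, while siCXCR4 replicate 2 lay between the siNC libraries. The log2 fold change was -0.26 (SE 0.206, 95% interval -0.79 to 0.28, limma adjusted p = 0.715), and its range over 10 fits with 1 library left out was -0.41 to -0.08. Without siCXCR4 replicate 2 it was -0.40 (limma adjusted p = 0.447), and without siCXCR4 replicate 3 it was -0.08. The residual SD within groups was 0.283 on the log2 scale, at the 96.2 percentile of tested genes, while counting error alone would give 0.0275 from 1833 to 3505 reads. The coefficient of variation among siCXCR4 libraries was 21.9% for Lgals1, against 1.41% (Anxa5) to 11.04% (Anxa3) for the other members.

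Lgals1 was also the only member with a gene length under 1000 bases. The median of the 911 tested genes of that class, each gene centred on its mean over the 5 libraries, was -0.04, 0.02 and -0.07 on the log2 scale in siCXCR4 replicates 1, 2 and 3, and 0.07 and 0.02 in siNC replicates 1 and 2. Lgals1 itself lay at -0.03, 0.18 and -0.46 in the siCXCR4 libraries and at 0.27 and 0.04 in the siNC libraries. Both were highest in siNC replicate 1 and lowest in siCXCR4 replicate 3. In the 4956 tested genes of at least 4000 bases the medians were 0.00, 0.01 and 0.02 in siCXCR4 and -0.01 and -0.01 in siNC libraries. The part of gene length in the Lgals1 values was not tested.

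**Figure D3:**
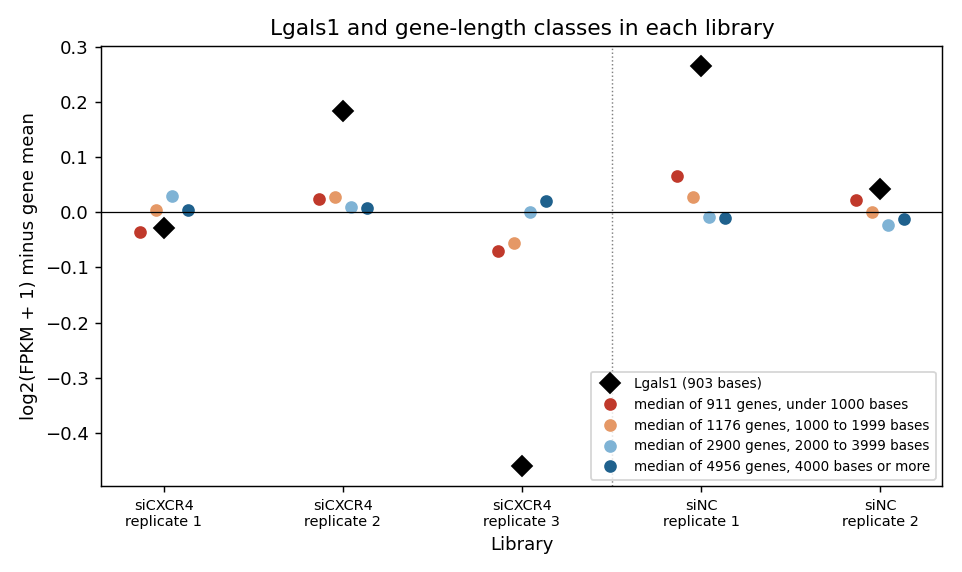
Deviation from the gene's own mean over the 5 libraries (log2(FPKM + 1) scale) of Lgals1 (black diamonds) and of the median gene in each of 4 gene-length classes (circles), by library. Lgals1 runs from -0.46 in siCXCR4 replicate 3 to 0.27 in siNC replicate 1, and the class under 1000 bases from -0.07 to 0.07 in the same libraries.

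Anxa1, the annexin that signals through formyl peptide receptors and is induced by glucocorticoids (ENSMUSG00000024659, chromosome 19, 20373428 to 20390944, minus strand), was at 204, 196 and 182 FPKM in siCXCR4 libraries, against 177 and 175 FPKM in siNC libraries. All siCXCR4 values lay above both siNC values, with replicate 3 closest to them. The exact two-sided permutation test gave p = 0.2 for Anxa1. The log2 fold change was 0.14 (SE 0.0631, 95% interval -0.01 to 0.29, limma adjusted p = 0.550), with group means of 194 ± 11.5 FPKM in siCXCR4 (SD, n = 3) and 176 ± 1.96 FPKM in siNC (SD, n = 2). Without siCXCR4 replicate 2 it was 0.13 (limma adjusted p = 0.449). Anxa5, which binds phosphatidylserine and is used as a probe for dying cells (ENSMUSG00000027712, chromosome 3, 36448923 to 36475894, minus strand), was at 417, 410 and 421 FPKM in siCXCR4 libraries, against 388 and 397 FPKM in siNC libraries. Its groups did not overlap either, and its residual SD of 0.0214 was the smallest among members, at the 3.05 percentile of tested genes. The log2 fold change was 0.08 (SE 0.0497, 95% interval -0.03 to 0.20, limma adjusted p = 0.619, exact two-sided permutation p = 0.1). Leaving out siCXCR4 replicate 2 gave 0.10 (limma adjusted p = 0.478).

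The FPKM denominators counted reads outside the listed genes to an unequal extent, 0.00033%, 0.312% and 1.37% of the denominator in siCXCR4 libraries and 2.80% and 2.15% in siNC libraries. Rescaled to reads in listed genes, the log2 fold changes were 0.12 for Lgals9, 0.11 for Anxa1 and 0.06 for Anxa5, all below the values above. For Lgals9 the rescaled estimate had an SE of 0.0539 (limma adjusted p = 0.618). The median over all tested genes went from 0.015 to -0.0083, so the share of genes above 0 also depends on this scaling.

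Anxa2, which binds the plasma membrane in a complex with S100a10 and serves there in plasminogen activation and membrane repair (ENSMUSG00000032231, chromosome 9, 69453620 to 69491795, plus strand), was at 83.7, 83.6 and 77.2 FPKM in siCXCR4 libraries, against 77.4 and 74.5 FPKM in siNC libraries. The groups overlapped only through siCXCR4 replicate 3, which lay between the siNC values (log2 fold change 0.10, SE 0.0572, limma adjusted p = 0.616), and the estimate was 0.082 without siCXCR4 replicate 2 (limma adjusted p = 0.598). Its partner S100a10, named after its values were seen, was at 15.1, 19.1 and 13.9 FPKM in siCXCR4 and at 18.7 and 17.4 FPKM in siNC libraries (log2 fold change -0.17, SE 0.1299, limma adjusted p = 0.694). Without siCXCR4 replicate 2 the S100a10 estimate was -0.30 by limma (adjusted p = 0.190) and -0.33 by edgeR (adjusted p = 0.0830). The ratio of Anxa2 to S100a10 FPKM was 5.54, 4.38 and 5.56 in siCXCR4 libraries, against 4.14 and 4.29 in siNC libraries. The siCXCR4 ratios all lay above the siNC ratios, with siCXCR4 replicate 2 close to them. The other ratios taken overlapped between groups: Anxa1 to S100a11, Lgals3 to Lgals1, Lgals9 to Lgals1 and Lgals3 to Lgals3bp. How often such ratios separate the groups over all genes was not worked out.

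The remaining annexins overlapped between groups. Anxa4, which binds membranes in secretory and ion-transporting cells (ENSMUSG00000029994, chromosome 6, 86736840 to 86793584, minus strand), was at 128, 127 and 121 FPKM in siCXCR4 libraries, against 122 and 133 FPKM in siNC libraries (log2 fold change -0.02, limma adjusted p = 0.947). With 1 library left out, the Anxa4 estimate by limma ran from -0.081 without siNC replicate 1 to 0.046 without siNC replicate 2, turning above 0 also without siCXCR4 replicate 3 (0.0096), and it was -0.028 without siCXCR4 replicate 2 and -0.034 without siCXCR4 replicate 1. Anxa7, known as synexin for its part in the fusion of secretory granules (ENSMUSG00000021814, chromosome 14, 20455260 to 20480133, minus strand), was at 25.2, 26.2 and 26.3 FPKM in siCXCR4 libraries, against 25.3 and 24.6 FPKM in siNC libraries (log2 fold change 0.05, limma adjusted p = 0.745), and its estimate was 0.043 without siCXCR4 replicate 2 and 0.034 without siNC replicate 2. Anxa3, an annexin abundant in neutrophils (ENSMUSG00000029484, chromosome 5, 96793339 to 96845966, plus strand), was at 22.0, 24.9 and 20.02 FPKM in siCXCR4 libraries, against 24.8 and 22.5 FPKM in siNC libraries. The highest and the lowest Anxa3 values were both from siCXCR4 libraries (log2 fold change -0.09, SE 0.0949, limma adjusted p = 0.788), and its size rested on single libraries. By limma it was -0.17 without siCXCR4 replicate 2 (adjusted p = 0.374) and -0.15 without siNC replicate 2, but -0.016 without siCXCR4 replicate 3 and -0.020 without siNC replicate 1. Beside Anxa3, the summed neutrophil markers given above were lower in every siCXCR4 library than in the siNC libraries, with Ly6g, Mpo and Elane near 0. Of the 5 markers above 1 FPKM, S100a8 and S100a9 were lower in every siCXCR4 library than in both siNC libraries, while Camp, Ltf and Ngp overlapped between groups, with Ngp at 34.5, 27.4 and 29.1 FPKM in siCXCR4 and at 29.8 and 29.2 FPKM in siNC libraries. The part of these markers in the Anxa3 values was not tested.

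**Figure D4:**
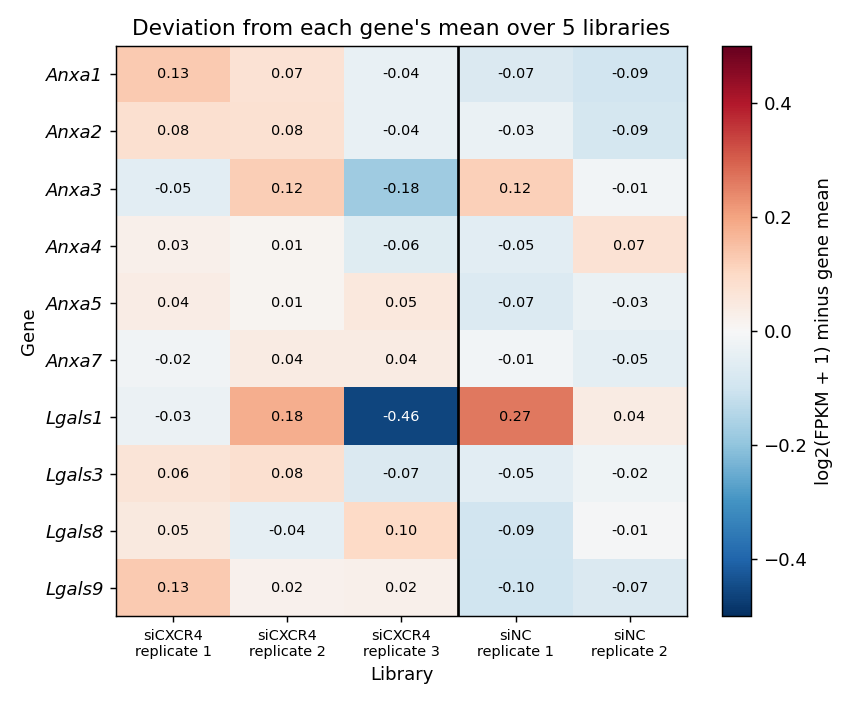
Deviation of each member from its own mean over the 5 libraries (log2(FPKM + 1) scale), siCXCR4 libraries left of the line and siNC libraries right of it. Anxa1, Anxa5 and Lgals9 have every siCXCR4 value above both siNC values, and the darkest cell is Lgals1 in siCXCR4 replicate 3 at -0.46.

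Between these siCXCR4 and siNC libraries, the limma intervals were narrow for all members but 1. The 95% interval of the fold change lay within 1.25-fold in either direction for 9 of 10 members, the exception being Lgals1, whose interval ran from 0.579-fold to 1.21-fold. Over all tested genes, 7368 of 9943 had an interval within 1.25-fold. These intervals rest on 5 libraries, whose spread may be technical, and do not show that the groups are equal. The interval of Anxa3 came close to the 1.25-fold bound, running from 0.804-fold to 1.10-fold. Without siCXCR4 replicate 2 the Anxa3 log2 estimate was -0.17 (SE 0.0732). Cxcr4 itself was at 0.80-fold, so the intervals do not bound the effect of a fuller loss of Cxcr4. The median half-width of the interval was 0.15 on the log2 scale over members and 0.17 over all tested genes. Reads behind the members ran from 1397 (Anxa3) to 27098 (Lgals3) per library, and cover counting error only. Of the members' 50-base words, at most 3.87% (Lgals8) occurred in transcripts of another gene, and those of Anxa1, Anxa5, Anxa7, Lgals1, Lgals3 and Lgals9 were all unique to the gene.

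Of 13 other annexin and galectin genes, 12 had a row, 4 were tested and 0 were called by limma, with 2 estimates above 0 and 2 below. None had an unadjusted p under 0.05, and edgeR, DESeq2 and limma-voom called 0. Lgals3bp, a secreted glycoprotein that binds galectin-3 and is not itself a galectin, was above every member in level, at 865, 822 and 853 FPKM in siCXCR4 libraries, against 747 and 807 FPKM in siNC libraries. Its groups did not overlap (log2 fold change 0.12, SE 0.0597, limma adjusted p = 0.564). Anxa6, a long annexin linked to endosomes and cholesterol traffic, was at 64.7, 55.0 and 59.7 FPKM in siCXCR4 and at 55.7 and 53.9 FPKM in siNC libraries, with overlap through siCXCR4 replicate 2 (log2 fold change 0.12, limma adjusted p = 0.635). Anxa11, which tethers RNA granules to lysosomes, averaged 7.45 ± 0.604 FPKM in siCXCR4 (SD, n = 3) and 7.61 ± 0.0311 FPKM in siNC (SD, n = 2). Anxa9 averaged 1.70 ± 0.262 and 1.84 ± 0.246 FPKM, on 65 to 92 reads per library. Anxa8, Anxa10, Lgals2 and Lgals7 had 0 reads in every library, and Anxa13, Lgals4, Lgals12 and Lgalsl had at most 8 reads in any library. Lgals6 was not analysed here.

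Of 32 genes for partners of these proteins (S100 proteins, formyl peptide receptors, plasminogen activators, galectin ligands, membrane-repair and sugar-branching genes), 26 were tested. Limma called 0. At an unadjusted p under 0.05, 2 partners were higher and 1 was lower, where 5.8% and 3.54% of all tested genes were. The groups did not overlap in 6 higher and 4 lower partners, where 17.9% and 9.92% of all tested genes were such. As for other tools, edgeR, DESeq2 and limma-voom called 0. The median log2 fold change was 0.02, against 0.01 over all tested genes. Fpr2, a receptor for annexin A1 in mouse leukocytes, was at 183, 213 and 179 FPKM in siCXCR4 libraries, against 233 and 224 FPKM in siNC libraries. All siCXCR4 values of Fpr2 lay below both siNC values, the opposite order to that of Anxa1 (log2 fold change -0.25, SE 0.0829, limma adjusted p = 0.501). Fpr1, another formyl peptide receptor, was at 143, 150 and 125 FPKM in siCXCR4 and at 165 and 138 FPKM in siNC libraries. The Fpr1 groups overlapped (log2 fold change -0.12, limma adjusted p = 0.726). Fpr3, on 31 to 158 reads per library, was at 1.38, 1.26 and 2.72 FPKM in siCXCR4 and at 5.65 and 2.60 FPKM in siNC libraries. Its groups overlapped, and its estimate was the lowest among the partners (log2 fold change -0.85, SE 0.366, limma adjusted p = 0.561). Without siCXCR4 replicate 2, edgeR called Fpr2 at a log2 fold change of -0.35 (adjusted p = 0.00109) and S100a6 at -0.40 (adjusted p = 0.0154), where it called neither with all libraries (adjusted p = 0.178 and 0.511) and limma did not either (adjusted p = 0.122 and 0.136). That edgeR fit called 312 of 12750 genes, against 17 of 12794 with all libraries, so such calls were not particular to the partners. S100a6, Fpr1 and Fpr3 were named after their values were seen.

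Among the other named partners, Pdcd6ip, the ALIX protein that recruits the membrane-scission machinery, was at 53.2, 51.4 and 53.0 FPKM in siCXCR4 and at 48.4 and 47.9 FPKM in siNC libraries (log2 fold change 0.12, SE 0.0463, limma adjusted p = 0.512). Plau, the urokinase plasminogen activator, was at 98.9, 95.7 and 97.5 FPKM in siCXCR4 and at 89.7 and 89.7 FPKM in siNC libraries (log2 fold change 0.12, limma adjusted p = 0.526). In both genes the siCXCR4 values lay above the siNC values. The lysosomal membrane glycoproteins Lamp1 and Lamp2, which galectin-3 can bind, had log2 fold changes of 0.12 and 0.13 (limma adjusted p = 0.544 and 0.538), with Lamp1 at 469 ± 11.8 FPKM in siCXCR4 (SD, n = 3) and 432 ± 8.61 FPKM in siNC (SD, n = 2). S100a11, a partner of annexin A1, was at 379, 339 and 322 FPKM in siCXCR4 and at 296 and 315 FPKM in siNC libraries (log2 fold change 0.18, limma adjusted p = 0.544). The ratio of Anxa1 to S100a11 FPKM was 0.540, 0.579 and 0.564 in siCXCR4 and 0.599 and 0.554 in siNC libraries, with overlapping groups. Chmp4b, a filament-forming subunit of the scission machinery, was at 338 ± 19.4 FPKM in siCXCR4 (SD, n = 3) and 320 ± 1.33 FPKM in siNC (SD, n = 2).

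The profiles most like those of Lgals9 and Anxa1, the galectin and the annexin of lowest p, were sought among 8954 tested protein-coding genes by the root mean square difference of centred log2(FPKM + 1) values over the 5 libraries. For Lgals9 these were Tbcel, Nfyc and Ankmy2, with differences of 0.0110, 0.0126 and 0.0127. For Anxa1 they were Xrcc1, Mark4 and Arl11, with differences of 0.0133, 0.0137 and 0.0188. Tbcel, for example, was at 5.65, 5.14 and 5.09 FPKM in siCXCR4 and at 4.72 and 4.75 FPKM in siNC libraries, with siCXCR4 replicate 1 the highest as in Lgals9. With 5 points and this many genes, such likeness is a description alone.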

How the data were processed

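The values the authors deposited in 5 tables carry no unit in their headers. These deposited values are taken as FPKM the authors made from reads, gene length and library size (or RPKM, which would look alike) because, multiplied by gene length, 100% were whole multiples of a step fixed per library (tolerance 0.05). The deposited table of siNC replicate 3 held whole read counts instead. The sources used here name no aligner, counting tool or strand setting. The submitters' processing notes name mm9, but 53548 of 54495 genes shared with GENCODE M21 (98.3%) had the same position, so positions are in GRCm38.

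The comparison used limma 3.58.1 in R 4.3.3 (trend, robust) on log2(FPKM + 1) of genes averaging 1 FPKM or more, two-sided, Benjamini-Hochberg adjusted over all 9943 genes, called under 0.05. Where 1 symbol had several rows (102 symbols), only the row of highest mean entered. edgeR 4.0.16 (TMM, quasi-likelihood), DESeq2 1.42.0 and limma-voom on the whole reads were alternatives. Fits were tested on simulated data drawn with the same extra spread for every gene. Spread in these libraries differed between genes, so the simulation does not show how the fits perform here. Counting error is that of whole reads.

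Members, gene lists and tests were chosen with earlier results of these data known. Named were all members and Cxcr4, other family genes averaging 1 FPKM or more, the 6 partners of lowest p with the 2 most abundant, and the 3 most alike profiles.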

Additional observations from a re-analysis of the deposited data

How the results depend on the processing

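Over 22 alternatives (pseudocount, filter, scaling, test, summed rows, replicate block and libraries left out), no member was called in any of 220 estimates, with adjusted p from 0.160 to 0.9996, and 8 of 10 members kept their direction in every alternative. With 1 library left out, Anxa4 ran by limma from -0.081 to 0.046, the upper end without siNC replicate 2, where edgeR gave 0.032, and it was 0.0096 with the replicate block and without siCXCR4 replicate 3. Lgals3 turned to -0.026 with quantile normalization. The cause was not tested. Not all of the 22 alternatives were separate checks. Summed rows and the other filters on low values could not move a member's estimate. The replicate block gave the members the same estimates as the fit without siCXCR4 replicate 3. Also among the 22 was limma with siNC replicate 3 counted as a separate library. The count of members whose groups do not overlap was 4 to 6 with 1 library left out, beside 37.3% to 55% of all tested genes.

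Over all genes, limma called 0, edgeR 17, DESeq2 28 and limma-voom 12, and limma with siNC replicate 3 as a separate library called 6. With 1 library left out the count was 0 to 312, the highest by edgeR without siCXCR4 replicate 2 (without siCXCR4 replicate 3 it was 3, without siNC replicate 1 it was 5 and without siNC replicate 2 it was 20), and 0 to 2 by limma. Partners called were 0 to 2 with 1 library left out. Cxcr4 ranged from -0.40 to -0.27 with 1 library left out, the lower end by edgeR without siCXCR4 replicate 2 (adjusted p = 0.00104). With the replicate block limma called 0 genes and Cxcr4 was at -0.30. Same-numbered libraries correlated at -0.04 and -0.11 in their deviations from group means. With 2 siNC libraries the siNC deviations mirror each other, so these correlations cannot decide on a pairing. The numbers were not taken as a pairing, and siNC holds only 2 of the 3 numbers. With 1 siNC library left out, the lone one is assumed to vary like the siCXCR4 libraries. The edgeR fits with a library left out, and the counts of groups that do not overlap, were chosen after seeing the data.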
